A study of Mus musculus with 4 samples.

Results

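The genes described here are 39 that answer to interferon or carry peptides to MHC class I, chosen by symbol: 27 genes of the type I interferon response, 6 interferon-inducible GTPases and 6 genes of antigen processing. Of the 39, 37 had a probe set that the array's annotation assigns to 1 gene symbol, out of 18193 such genes on the array, and each was represented by its probe set with the highest mean signal. Isg15 and Ifi44 had no such probe set and have no value here. A filter kept probe sets whose mean log2 value lay above the median of the array (a signal of about 87.4), which left 31 of the 37 genes and 11258 genes in all. Stat2, Oas3, Dhx58, Mx1, Mx2 and Psmb9 were too dim to pass.

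Values came from 4 arrays of semilunar valve leaflets, the aortic and pulmonary valve flaps, of newborn mice. There were 2 pools of Cxcr7-/- neonates and 2 Control pools of wildtype littermates, each pool holding the leaflets of 3 animals. A mutant neonate gave 4 to 6 leaflets from 2 valves and a wildtype neonate gave 6. The labels name neither the strain, the allele's construction, the exact age nor the sex, and they call the pools biological replicates. Cxcr7 (listed as Ackr3), the scavenging receptor for the chemokine CXCL12, read 28.3 and 328 in Cxcr7-/- leaflets and 4936 and 5698 in Control leaflets, an order that follows the labels. Interstitial matrix genes of the leaflet were bright in all 4 pools, with a signal for decorin (Dcn) of 66304 and 66784 against 68440 and 48668. Heart muscle was carried along: 11 of 12 cardiomyocyte genes were lower in both mutant pools than in either Control pool. Of all genes past the filter 19.1% were lower in that way. Pool medians over all probe sets lay between 84.5 and 109.9. RNA of whole leaflets was measured, so fewer cells of a type and less RNA per cell cannot be told apart.

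Type I interferons signal through a receptor of the chains Ifnar1 and Ifnar2 to the kinases Jak1 and Tyk2, and these activate a complex of STAT proteins with Irf9 that binds the interferon-stimulated response element (ISRE) in promoters. Interferon gamma uses another receptor and acts mainly through the gamma-activated site (GAS), with Irf1 as a second wave. The products include sensors of viral RNA, enzymes that degrade or stall it, GTPases that attack the vacuoles of intracellular pathogens, and the proteasome subunits, transporter and chaperone that load peptides on MHC class I. Macrophages express many of these genes, and most cell types can be induced to.

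Promoter sequence was looked at first, because shared control elements are what the genes are best known for. The RefSeq table (GRCm38.p6) held a promoter window of 300 bases, from 250 before to 50 after the start of transcription, for 31 of the 39 genes. The core of an ISRE, searched as GAAA, NN and GAAA in a row on either strand, was found in 17 of these 31 genes (54.8%), against 3.99% of all 27025 genes of the table. The letters TTCNNNGAA, a GAS core that reads alike on both strands, were found in 11 of 31 (35.5%), against 9.55% of all genes. The cores can overlap, as they do in Bst2. A match is a description of letters and not a mapped binding site.

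The stretches below are those of Ifit1 and Irgm1, which had small unadjusted p-values in the genotype comparison, of the neighbours Igtp and Irgm2, of B2m and Bst2 among the genes higher in both mutant pools, and of Rsad2, which was not higher. Each is written 5′ to 3′ along its gene's strand, with the letters of either core in capitals.
Ifit1, chr19:34640770-34640828, plus strand: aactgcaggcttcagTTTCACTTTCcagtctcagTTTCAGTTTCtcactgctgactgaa
Irgm1, chr11:48871421-48871465, minus strand: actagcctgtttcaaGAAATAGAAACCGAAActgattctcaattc
Igtp, chr11:58199496-58199546, plus strand: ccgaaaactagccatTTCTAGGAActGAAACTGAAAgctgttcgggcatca
Irgm2, chr11:58214887-58214937, plus strand: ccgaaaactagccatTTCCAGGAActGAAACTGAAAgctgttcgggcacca
B2m, chr2:122147533-122147572, plus strand: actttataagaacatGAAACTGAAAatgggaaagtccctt
Bst2, chr8:71537572-71537623, minus strand: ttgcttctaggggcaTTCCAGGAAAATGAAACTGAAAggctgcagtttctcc
Rsad2, chr12:26456548-26456587, minus strand: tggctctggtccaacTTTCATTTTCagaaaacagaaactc

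In Ifit1 and Irgm1 a pair of ISRE cores follow each other, apart in Ifit1 and overlapping in Irgm1. Igtp and Irgm2, which are next to each other on chromosome 11, share a stretch of 51 bases that differs at 2 positions and holds a GAS core beside an ISRE core in both. Irf9 and Oasl2 had no ISRE core in their windows. For Usp18 and Iigp1 no promoter sequence was used here.

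The gene pair Psmb9 and Tap1 is arranged head to head in the MHC region, with no protein-coding gene between them. The 225 bases between their start sites are chr17:34187331-34187555 on the plus strand. They are shown because both genes were above Control in each mutant pool, though Psmb9 was too dim to pass the filter. Neither core occurs in these bases, so nothing is in capitals.
Psmb9 and Tap1: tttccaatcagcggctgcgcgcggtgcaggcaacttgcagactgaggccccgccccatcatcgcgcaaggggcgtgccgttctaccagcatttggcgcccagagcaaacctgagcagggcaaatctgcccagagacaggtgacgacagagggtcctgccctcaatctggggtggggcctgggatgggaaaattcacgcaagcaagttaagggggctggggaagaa

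The comparison asked how the leaflets of Cxcr7-/- neonates differ from those of littermates. Among the 31 genes past the filter, 17 (54.8%) were above both Control pools in each mutant pool, where 21.1% of all genes past the filter did. Lower in both were 3 (9.68%), Oasl1, Oas2 and Rsad2, against 19.1% of all genes, and the groups overlapped for 11. The median log2 difference, Cxcr7-/- minus Control on the scale log2(signal + 22), was 0.38 for the 31 genes and 0.0049 for all genes past the filter. Over all 37 genes with a value the median was 0.38 as well, with 19 higher in both pools (18.3% of all 18193 genes) and 3 lower (19% of all).

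No gene of the 31 passed the test over all probe sets. In limma, adjusted by Benjamini-Hochberg over 22518 probe sets, their smallest adjusted p was 0.411, and 0 of 11258 genes passed (0%), so none of the genes below is said to have risen or fallen. At an unadjusted p under 0.05 in limma there were 7 of 31 higher (22.6%), namely Irf9, Oasl2, Ifit1, Ifih1, Usp18, Iigp1 and Irgm1, and none lower. Of all genes 3.95% were higher at that level and 4.09% lower. All 7 had both mutant pools above both Control pools, so leaving out a pool could not change a sign. With each pool left out in turn, several sizes depended on single pools. Irf9 ranged from 0.91 to 1.11, Ifit1 from 0.87 to 1.05 and Ifih1 from 0.63 to 0.83. Oasl2 ranged from 0.72 to 1.24, Usp18 from 0.52 to 1.59, Iigp1 from 0.46 to 0.90 and Irgm1 from 0.55 to 1.28. With 2 pools per genotype the median standard error over the 31 genes was 0.35, nearly as large as their median difference.

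**Figure D1:**
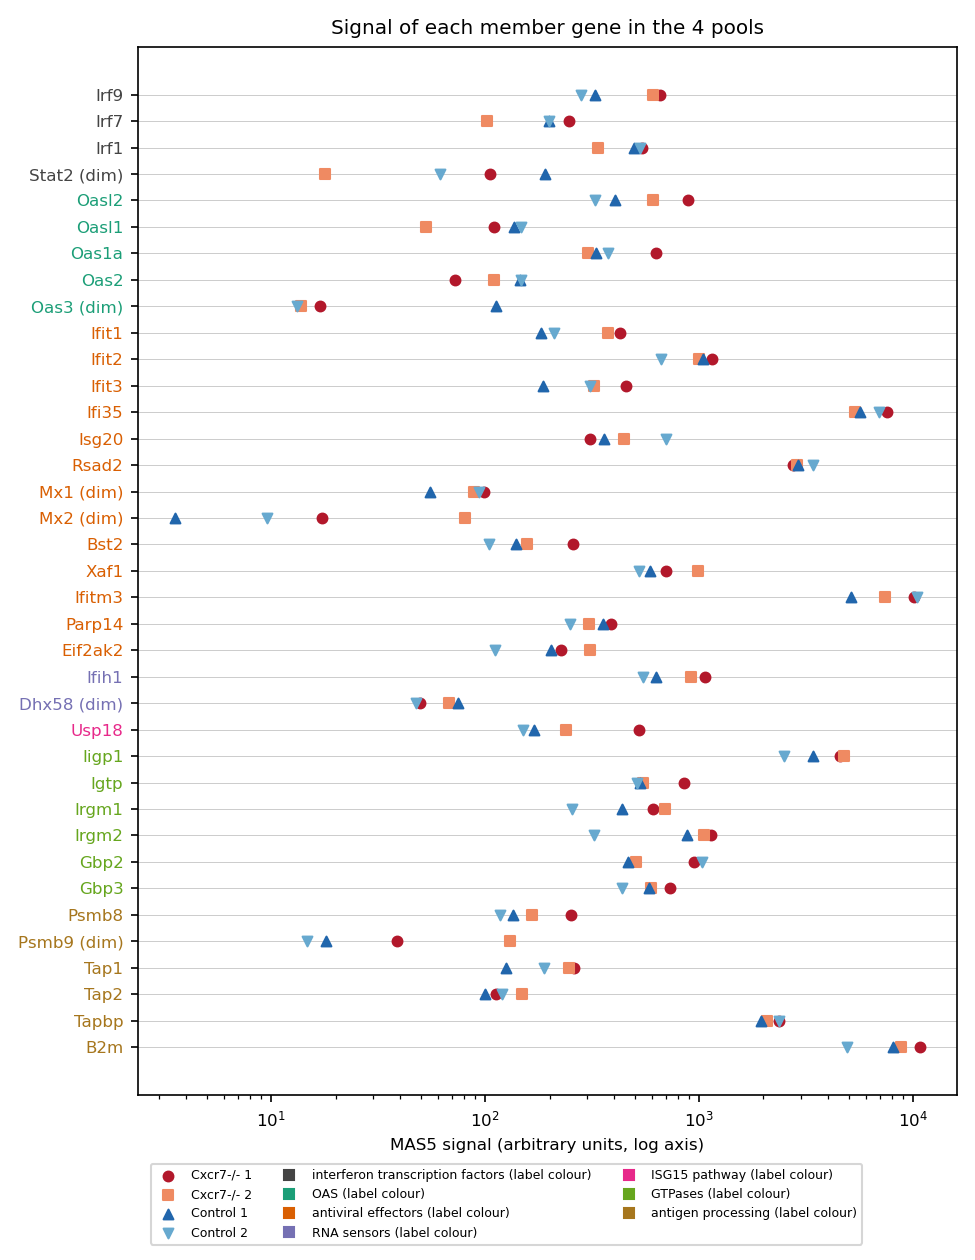
Signal (log axis, arbitrary MAS5 units) of the 37 genes with a value in the 2 Cxcr7-/- pools (circle, square) and the 2 Control pools (triangles); genes marked dim did not pass the filter and label colours give the role. Both mutant symbols lie to the right of both Control symbols for 19 of the 37 genes and to the left for 3.

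The transcription factors differed among themselves. Irf9, the DNA-binding subunit of the complex that type I interferon assembles, read 655 and 607 in Cxcr7-/- leaflets and 326 and 280 in Control leaflets. Both mutant pools stood above both Control pools by close to 2-fold in mean signal (log2 difference 1.01 ± 0.30, SE, n = 2 and 2; limma adjusted p = 0.411). Irf7, which amplifies interferon production, read 247 and 102 against 199.9 and 198. Its mutant pools enclosed the Control pools, and the log2 difference of -0.28 ± 0.45 turned to 0.28 without Cxcr7-/- replicate 2. Irf1, induced mainly by interferon gamma but counted here with the type I response genes, read 542 and 337 against 495 and 527. Control again lay inside the range of the mutant pools (-0.24 ± 0.33, or 0.083 without Cxcr7-/- replicate 2). Stat2, the partner of Irf9, was dim and scattered, at 105 and 17.9 against 190.1 and 61.3.

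Among the oligoadenylate synthetase genes, whose enzymes make the messenger that activates RNase L, the members diverged. Oasl2, a relative in this family, read 887 and 611 in Cxcr7-/- leaflets against 404 and 326, with no overlap (0.98 ± 0.32). Its neighbour on chromosome 5, Oasl1, read 109.9 and 52.9 against 136 and 147, lower in both mutant pools (-0.72 ± 0.44). Oas2 was also lower in both, at 72.4 and 109.7 against 145 and 147 (-0.59 ± 0.40). Oas1a read 628 and 302 against 329 and 374, so that a single mutant pool stood above the rest, and its log2 difference of 0.30 ± 0.39 turned to -0.20 without Cxcr7-/- replicate 1. Oas3 was dim, at 16.8 and 13.8 against 112.6 and 13.1. Of the 4 measured above the filter, then, 1 was higher in both pools, 2 were lower in both and 1 overlapped. Among all genes past the filter the shares were 21.1% higher in both and 19.1% lower in both.

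The IFIT proteins bind viral RNA and hold back its translation. Ifit1 read 429 and 377 in Cxcr7-/- leaflets and 183 and 211 in Control leaflets, a gap with no overlap (0.96 ± 0.32). Ifit3 read 457 and 324 against 186 and 309, with the lower mutant pool only just above the higher Control pool (0.63 ± 0.37). Ifit2, which lies beside Ifit3 on chromosome 19, read 1148 and 1002 against 1039 and 660.5 and overlapped (0.36 ± 0.31). The 3 IFIT genes thus had the same sign, and 2 of them no overlap. Single pools weighed on both weaker ones: Ifit2 was at 0.045 without Control replicate 2, and Ifit3 at 0.29 without Control replicate 1 and 0.97 without Control replicate 2.

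Of the other antiviral effectors, 3 were higher in both mutant pools. Bst2, the tetherin that holds virus particles on the cell surface, read 258 and 157 against 139.6 and 104 (0.65 ± 0.40). Xaf1, an interferon-induced promoter of apoptosis, read 700.5 and 992 against 587 and 524 (0.57 ± 0.30). Eif2ak2, the kinase PKR that stops translation in the presence of double-stranded RNA, read 225 and 308 against 203 and 111 (0.72 ± 0.40), and its further kept probe sets, at 0.28 and 0.18, had the same sign but overlapped between genotypes. The median over its probe sets was 0.28. In each of these the margin between the nearest pools of the genotypes was smaller than the spread between the mutant pools.

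Of the remaining effectors none that passed the filter was higher in both mutant pools on its brightest probe set. Rsad2, the antiviral enzyme viperin, read 2735 and 2856 in Cxcr7-/- leaflets and 2891 and 3423 in Control leaflets, lower in both by a small margin (-0.17 ± 0.24). Its other kept probe set was also lower in both, at 207 and 306 against 308 and 339 (-0.33 ± 0.34). A dim probe set had the same order, at 4.60 and 9.45 against 56.7 and 51.7. Isg20, an RNA exonuclease, read 308 and 444 against 360.3 and 702 (-0.42 ± 0.39), and without Control replicate 2 the sign changed to 0.037. Ifitm3, which blocks the entry of enveloped viruses, was bright in every pool at 10142 and 7391 against 5150.3 and 10461, with the Control pools at both ends of the range (0.24 ± 0.35, or -0.27 without Control replicate 1). Parp14, an ADP-ribosyl transferase, read 387 and 306 against 355 and 251 (0.19 ± 0.34). Ifi35 read 7527 and 5343 against 5674 and 6905 (0.019 ± 0.26), and its 3 kept probe sets did not share a sign. The dimmest of them read 424 and 442 against 366 and 405, higher in both mutant pools (0.16 ± 0.30). Mx1 and Mx2, the dynamin-like antiviral GTPases, were dim at 98.4 and 88.4 against 55.3 and 93.5 and at 17.3 and 80.9 against 3.56 and 9.55, where the latter gene split the genotypes at a level too low to compare.

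The RNA sensor Ifih1, the helicase MDA5, read 1061 and 920 in Cxcr7-/- leaflets and 629 and 545 in Control leaflets, with a clear gap (0.73 ± 0.28). Its relative Dhx58 was dim and overlapped, at 49.7 and 67.6 against 75.1 and 47.5. Usp18, the protease that removes ISG15 from proteins and damps the type I receptor, read 524 and 239 against 169.6 and 150.1. Both mutant pools were above both Control pools, but replicate 1 carried most of the gap: the log2 difference of 1.05 ± 0.42 was 0.52 without it.

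**Figure D2:**
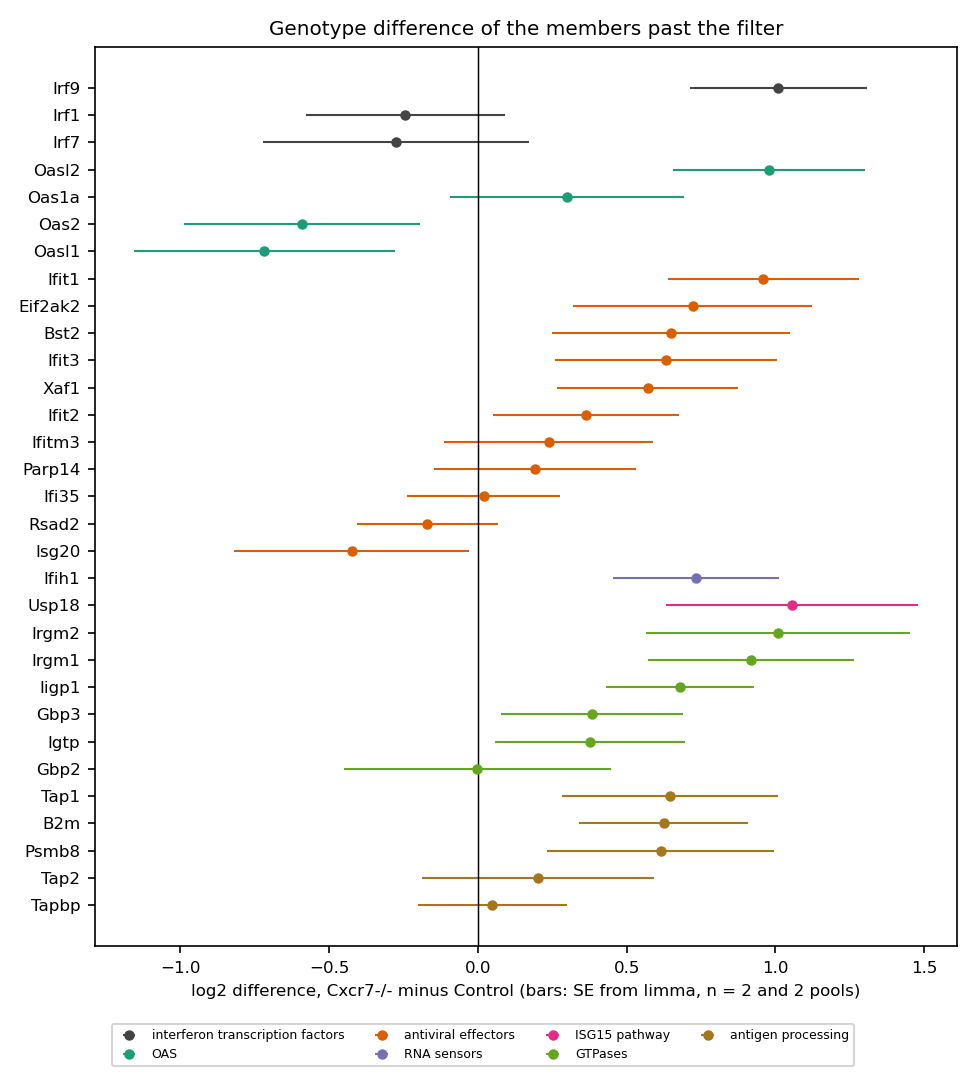
Log2 difference, Cxcr7-/- minus Control, of the 31 genes past the filter, grouped by role, with bars for the standard error from limma (n = 2 and 2 pools). Values run from -0.72 for Oasl1 to 1.05 for Usp18; the type I roles span both signs, while GTPases and antigen processing genes lie from -0.0014 (Gbp2) upward.

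The interferon-inducible GTPases were more uniform. Iigp1, of the immunity-related GTPases that disrupt pathogen vacuoles, read 4566 and 4780.0 in Cxcr7-/- leaflets against 3390.1 and 2499 (0.68 ± 0.25), and its other probe set gave 1656 and 2362 against 1345 and 768 (0.94 ± 0.34). Irgm1, a regulator of these GTPases, read 609.6 and 692 against 437 and 254 (0.92 ± 0.35). Irgm2, another such regulator, read 1142 and 1054 against 879 and 322 (1.01 ± 0.44). In all 3 the Control pools differed more from each other than the mutant pools did, with Control replicate 2 the lowest. Without that pool the differences were 0.46 for Iigp1, 0.55 for Irgm1 and 0.31 for Irgm2, and without Control replicate 1 Irgm2 was at 1.70.

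The other GTPases differed less. Igtp read 847 and 548 against 528 and 513, higher in both mutant pools by a narrow margin (0.38 ± 0.32), and its difference was 0.072 without Cxcr7-/- replicate 1. Gbp3, of the guanylate-binding proteins, read 735 and 598 against 581 and 435 (0.38 ± 0.31). Gbp2 read 948 and 506 against 466 and 1029 on a probe set whose name marks possible cross-hybridisation (-0.0014 ± 0.45), while its other probe set read 474 and 466 against 259 and 414 (0.49 ± 0.34). In all, 5 of 6 GTPase genes had no overlap with higher signal in the mutant pools, and their median log2 difference was 0.53. Such a gap was seen for 21.1% of all genes past the filter.

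Genes that prepare peptides for MHC class I were higher or level, and none was lower in both mutant pools. B2m, the light chain of every MHC class I molecule, read 10752 and 8779 in Cxcr7-/- leaflets and 8053 and 4915 in Control leaflets (0.63 ± 0.28). Its second probe set gave 4521 and 4174 against 2990 and 2453 (0.68 ± 0.24), also without overlap. On the brighter probe set the difference was 0.27 without Control replicate 2 and 0.98 without Control replicate 1. Tap1, a chain of the transporter that moves peptides into the endoplasmic reticulum, read 261 and 247 against 125 and 189 (0.65 ± 0.36). Psmb8, a catalytic subunit of the immunoproteasome, read 252 and 165 against 135 and 117 (0.61 ± 0.38).

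Tap2, the partner chain of Tap1, read 112 and 149 against 100.1 and 120.0 and overlapped (0.20 ± 0.39). The bridging chaperone tapasin (Tapbp) was level, at 2369 and 2079 against 1951 and 2361 (0.048 ± 0.25). Psmb9, a further immunoproteasome subunit, was dim and split the genotypes at a level too low to compare, at 38.6 and 130.6 against 18.0 and 14.7. Its neighbour across the shared stretch, Tap1, had the same order of genotypes at a brighter level. The median log2 difference of the 5 antigen processing genes past the filter was 0.61, and it ranged from 0.31 to 0.68 with 1 pool left out.

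Set side by side, type I response genes had a median log2 difference of 0.33 (20 genes past the filter, 14 positive, 9 higher in both mutant pools and 3 lower in both). GTPase and antigen processing genes together had a median of 0.61 (11 genes, 10 positive, 8 higher in both and 0 lower in both). The difference between these roles was not tested. Of all genes past the filter 21.1% were higher in both mutant pools and 19.1% lower in both. Without Cxcr7-/- replicate 1 the type I median was 0.15 and that of the GTPase and antigen processing genes together 0.38. Without Control replicate 2 the type I median was 0.365 and the other 0.356, so that the gap between the roles was no longer seen. Cxcr7-/- replicate 1 stood above replicate 2 for 23 of the 31 genes (74.2%), against 52.3% of all genes, with a median gap of 0.29. That gap within a genotype was widest in the transcription factor and OAS genes, at medians of 0.65 and 0.67 among roles with over 1 gene past the filter. Between the Control pools, the median gap of replicate 1 over replicate 2 was 0.00055 for the type I genes and 0.42 for the GTPases.

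The genes were also set apart by a match to the ISRE core. Of the 26 genes past the filter with a promoter window, the 14 with a core had a median log2 difference of 0.63 and the 12 without had 0.21. Over all 9124 genes past the filter with a promoter window, these 26 included, the medians were 0.085 for 320 with a core and 0.0020 for the rest. Genes at the upper end were found in both sets, Irgm2 and Ifit1 with a core and Irf9 and Oasl2 without. For the GAS core the order was opposite, at 0.36 for the 11 with it and 0.63 for the 15 without. Over the same 9124 genes the median was 0.040 with a GAS core and 0.00069 without. These are descriptions over few genes, several of them neighbours, and were not tested.

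**Figure D3:**
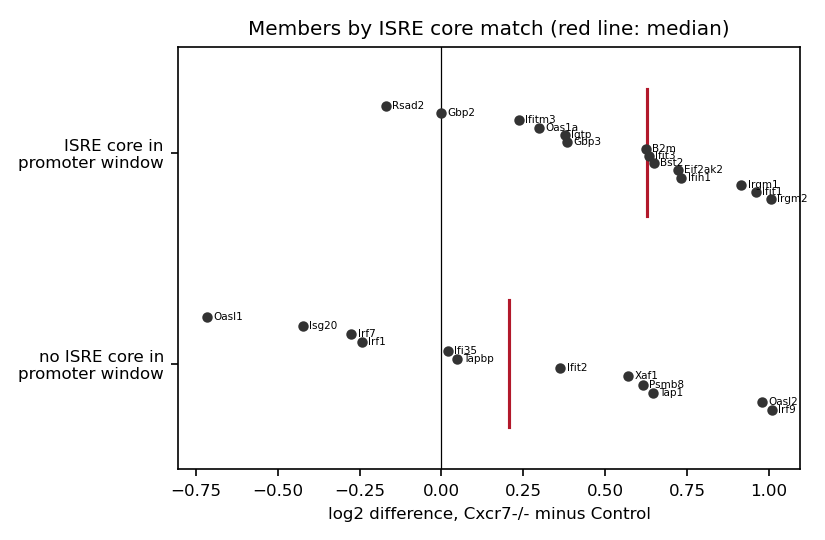
Log2 difference, Cxcr7-/- minus Control, of the 26 genes past the filter that had a promoter window, split by whether the window holds an ISRE core on either strand; points are genes, spread vertically by rank, and red lines are medians. The median is 0.63 for the 14 genes with a core and 0.21 for the 12 without, and the sets overlap over most of their range.

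Upstream of these genes, the pathway went both ways. Of 19 measured ligand, receptor and signalling genes, 14 passed the filter, with 7 positive, 7 negative, a median of -0.049 and none at an unadjusted p under 0.05. The feedback inhibitor Socs3 was at -0.86 ± 0.41 with overlapping groups, while Ptpn6, a phosphatase of blood cells, at 0.77 ± 0.35, and the kinase Jak1, at 0.40 ± 0.25, were higher in both mutant pools. Ifnb1 and Ifng, which encode interferon beta and gamma, were dim, with signals of at most 73.1 and 39.5 in any pool. The receptor genes lay near 0, with log2 differences of 0.030 ± 0.27 for Ifnar1, 0.27 ± 0.42 for Ifnar2, -0.17 ± 0.31 for Ifngr1 and -0.13 ± 0.33 for Ifngr2. Irf8, a factor of the macrophage lineage, read 441 and 466 against 278 and 359 (0.49 ± 0.31). Of 12 nucleic acid sensing genes past the filter 5 were higher in both mutant pools and 1 lower in both, with none at an unadjusted p under 0.05. Over all genes past the filter 21.1% were higher in both and 19.1% lower in both. The RNA helicase gene Ddx58 was at 0.55 ± 0.31.

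Interferon-stimulated genes outside the 39 were mostly higher. Of 32 past the filter 28 were positive and 17 were higher in both mutant pools, against 21.1% of all genes. None was lower in both, against 19.1% of all genes, and the median was 0.49. At an unadjusted p under 0.05 there were 8 higher and none lower in limma, against 3.95% and 4.09% of all genes. None of the 8 passed adjusted over all probe sets. The smallest p-values were those of Lgals3bp, a secreted glycoprotein, at 1.03 ± 0.33, of Nmi, a partner of Ifi35 and STAT proteins, at 0.90 ± 0.30, of the galectin gene Lgals9 at 1.09 ± 0.38 and of the GTPase gene Ifi47 at 0.89 ± 0.32.

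Among MHC class I heavy chains, which pair with B2m, H2-D1 read 5746 and 3456 in Cxcr7-/- leaflets and 2542 and 2322 in Control leaflets (0.87 ± 0.29). H2-K1 read 3755 and 2368 against 1747 and 2017 (0.66 ± 0.29). Both were above Control in both mutant pools, but these genes are near-identical copies whose probes can bind one another's transcripts. The other kept heavy chain and class I-like genes brought the median of the list to 0.027 over 8 genes. In peptide supply and loading, Pdia3 (1.36 ± 0.38), a disulfide isomerase of the loading complex, and calnexin (Canx, 0.67 ± 0.21) had unadjusted p under 0.05, while Psmb10 (0.10 ± 0.31) and Psme1 (-0.039 ± 0.30) lay near 0. Proteasome subunits of the constitutive set had a median of 0.13 over 14 genes, with Psmb5, the subunit that Psmb8 replaces, at 0.13 ± 0.25. Among them Psma1 was higher in both mutant pools (0.82 ± 0.31), with an unadjusted p under 0.05 in limma. Nlrc5 and Ciita, the transactivators of MHC class I and class II genes, were dim and did not pass the filter.

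Of the cell type lists, macrophage and MHC class II genes also stood higher in the mutant pools. Of 24 macrophage genes past the filter 23 were positive (median 0.81) and 20 higher in both mutant pools, against 21.1% of all genes. In limma 12 were higher at an unadjusted p under 0.05, against 3.95% of all genes. The summed signal of the macrophage genes was 42704 and 36226 in Cxcr7-/- leaflets and 27899 and 22245 in Control leaflets. The summed signals of the GTPases (8848 and 8178 against 6281 and 5052) and of the antigen processing genes (13785 and 11549 against 10382 and 7717) put the pools in the same order. Those of the type I genes did not, at 29331 and 23049 against 20037 and 26583. Sums follow the brightest genes, such as Ifitm3 and B2m. The median over genes of the log2 value minus its mean over the 4 pools gave another picture. For type I genes it was 0.31 and -0.0027 against -0.18 and -0.20. Macrophage genes had the same order, at 0.57 and 0.26 against -0.31 and -0.64. For antigen processing genes it was 0.36 and 0.17 against -0.21 and -0.061, so the Control pools changed places. Among macrophage genes the smallest unadjusted p-values were those of Mrc1 (1.75 ± 0.28), F13a1 (1.43 ± 0.32), Cd68 (1.55 ± 0.38) and Ms4a7 (1.15 ± 0.34). MHC class II genes had a median of 1.24, with 4 of 5 higher in both mutant pools and summed signals of 4708 and 3721 against 1737 and 1846. Of these, H2-Eb1 was at 1.84 ± 0.31 and H2-Aa at 1.24 ± 0.26. The part of macrophages in the interferon-stimulated signal was not tested. Lymphocyte and NK cell genes were at or near background: 1 of 10 measured, the granzyme gene Gzma, passed the filter. Of 6 plasmacytoid dendritic cell markers 3 passed the filter and did not share a sign: Bst2, one of the 39 genes, and Ccr9 (1.07 ± 0.83, overlapping) were positive and Tcf4 was lower in both mutant pools (-0.70 ± 0.27). Among the dim ones Ly6d was higher in both, at 47.7 and 36.0 against 11.3 and 8.84, and Siglech overlapped, at 53.5 and 8.80 against 17.1 and 53.6.

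Endothelial markers went the other way, with 9 of 11 negative, 7 lower in both mutant pools and a summed signal of 11707 and 10328 against 16230 and 19109. Of all genes past the filter 19.1% were lower in both. Interstitial markers went both ways (median 0.0076 over 10 genes), with Pdgfra lower in both mutant pools (-0.57 ± 0.24) and Lum (0.54 ± 0.26) and Vim (0.39 ± 0.20) higher in both. The lower cardiomyocyte signal given above moves with genotype as well, and its part in the levels here was not tested.

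**Figure D4:**
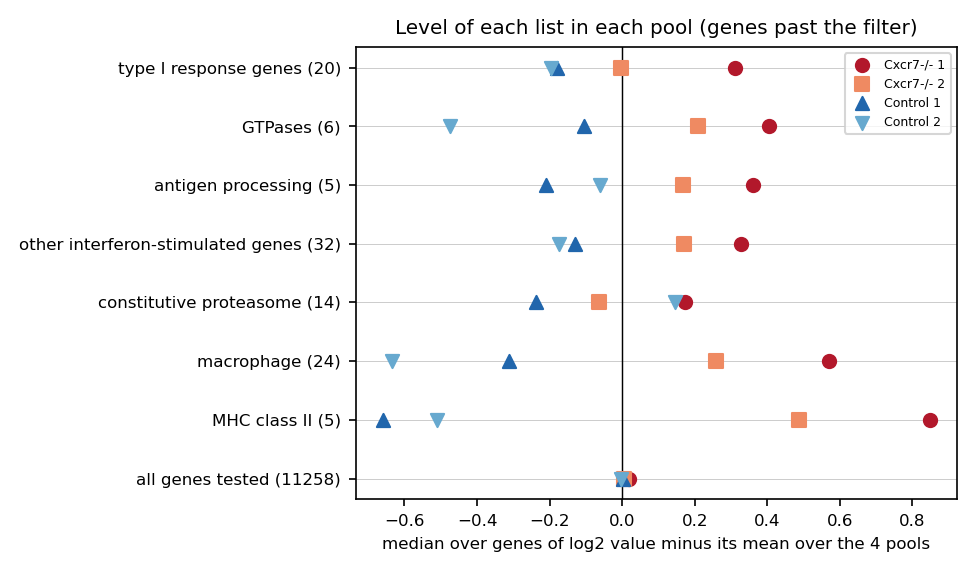
Median over genes of each gene's log2 value minus its mean over the 4 pools, for each list (genes past the filter in brackets) and pool. Cxcr7-/- replicate 1 is the highest pool for every list shown and replicate 2 the next, except that in the constitutive proteasome Control replicate 2 lies above it; macrophage and MHC class II genes spread more widely than the interferon lists.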

How the data were processed

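The authors deposited 1 linear intensity per probe set for each of 4 Affymetrix arrays. Affymetrix Expression Console and MAS5 are the tools in the submitters' processing notes. Per the labels' protocols, RNA (50 ng) was amplified in 2 rounds before labelling. The sources used here give no versions or detection calls. Each array had a trimmed mean of 500.003. MAS5 removes background, which makes dim signals imprecise.

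Of 45101 probe sets, 64 controls were left out. Signals were taken as log2(signal + 22), 22 being the 25th percentile, and 22518 probe sets with a mean above the median were kept. GEO's annotation of the array gave 34945 probe sets 1 symbol, 932 several and 9160 none. The comparison used limma 3.58.1 (R 4.3.3; lmFit, eBayes with trend, two-sided; 5.85 prior and 2 residual degrees of freedom; Benjamini-Hochberg, threshold 0.05), tested on simulated data. P-values set a difference against the spread between these pools, moderated by the spread of other probe sets. An exact permutation test of 2 against 2 pools could not pass 0.05 and was not used. The genes and lists were chosen with earlier results of these data known. All 39 genes were accounted for. In other lists, a fixed set and at most 4 genes, by smallest unadjusted p under 0.05, were named. For the endothelial, cardiomyocyte and MHC class II lists, not all genes that meet this rule are named. Ifnb1, Ifng, Socs3, Ptpn6, Jak1, Ddx58, Dcn, Lum, Vim, Gzma, Ccr9, Ly6d and Siglech were chosen after their values were seen. Alternatives covered pseudocount, filter, normalization, trend, replicate block, probe set choice and each pool left out. Sequences are RefSeq's, GRCm38.p6. The number of arrays limits the precision.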

Additional observations from a re-analysis of the deposited data

How the results depend on the processing

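With each pool left out in turn, the number of probe sets past an adjusted p of 0.05 in limma ranged from 0 to 673 (the highest without Control replicate 1), that of the 39 genes from 0 to 1 and that of the genes higher at an unadjusted p under 0.05 from 0 to 11. Each such run left 1 pool in a genotype, so its counts are not set against those of all 4 pools. In these runs the median log2 difference ranged from 0.32 to 0.53 for all genes and from 0.15 to 0.46 for type I response genes. It ranged from 0.41 to 0.74 for GTPases and from 0.31 to 0.68 for antigen processing genes. The antigen processing median was 0.45 with a pseudocount 4 times larger, 0.34 with the filter at the 75th percentile, where 2 genes were left, and 0.75 after median centring, which moves the median of all probe sets by 0.14. These medians kept their sign in every alternative run.

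Signs changed for the following genes. With each pool left out in turn, the log2 difference ranged from -0.83 to 0.28 for Irf7, from -0.57 to 0.083 for Irf1, from -0.20 to 0.80 for Oas1a, from -0.23 to 0.27 for Ifi35, from -0.88 to 0.037 for Isg20, from -0.55 to 0.55 for Gbp2, from -0.089 to 0.18 for Tapbp, from -0.27 to 0.75 for Ifitm3 and from -0.042 to 0.43 for Parp14. Gbp2 was also at 0.14 after median centring, 0.027 after quantile normalization and 0.24 as the median of its probe sets. The cause was not tested.

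Same-numbered pools deviated from their group means with r = -0.26, so the numbers do not pair the pools. With the replicate number as a block, 0 probe sets passed and 6 of the 39 genes were higher at an unadjusted p under 0.05. With the numbers crossed, chosen after seeing the data, 5 probe sets passed and 9 of the 39 genes were at that level, none past the adjusted threshold.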
